A study of Sus scrofa with 8 samples.

Results

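The smooth muscle contractile genes described here are 10 genes chosen by symbol: ACTA2, ACTG2, MYH11, TAGLN, CNN1, DES, MYLK, LMOD1, SMTN and SYNPO2. All 10 were found among the 31907 Ensembl genes of the deposited count files, and all 10 passed the filter on low counts, which kept 16549 genes. Messenger RNA had been sequenced from tissue of Guizhou minipigs aged 8 months in 4 groups of 2 libraries each. They came from normal peritoneum and from the mucosa of 3 organs: the normal bladder, an experimental neobladder and a control neobladder. A neobladder stores urine in place of the bladder and was made here from ileum, and the study tested the animal's own peritoneum as a replacement for the mucosa of such a reservoir. The labels give no genotype, drug or time after surgery, and they do not say how the control reservoir was lined or whether replicates came from separate animals, so every p-value measures only the spread between these samples.

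Smooth muscle shortens when myosin filaments pull on actin filaments that are anchored in dense bodies and in plaques at the cell membrane. Calcium bound to calmodulin activates myosin light chain kinase, which phosphorylates the myosin light chain and starts the cycle, and a myosin phosphatase reverses it. Most genes of the apparatus are switched on together by serum response factor and its partner myocardin. In the bladder and the gut the main mass of smooth muscle lies in the wall beneath the mucosa, and smaller amounts lie in the muscularis mucosae and in blood vessels. Activated fibroblasts (myofibroblasts) also make ACTA2 and TAGLN, and many non-muscle cells make MYLK.

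Library totals ran from 7.94 to 11.9 M counts. Levels are in CPM, a gene's share of its library's total after that total was scaled by a TMM factor (trimmed mean of M-values). On this scale 3 counts came to 0.224 to 0.561 CPM. The factors were 0.839 and 0.45 in control neobladder replicates 1 and 2 and 1.09 to 1.24 in the other 6 libraries. Because the control libraries were scaled so differently, levels in that group are the most exposed to this choice, and the closing section gives the effect of using unscaled totals. A gene is called where edgeR's quasi-likelihood test over all 16549 genes gave an adjusted p (Benjamini-Hochberg) below 0.05. Differences are log2 fold changes, the named group minus the group it is compared with, and are followed by their standard error (SE). In tissue pieces such as these, fewer smooth muscle cells and less RNA per cell cannot be told apart. The labels give mucosa as the source of all 8 libraries, peritoneum included. The peritoneum libraries held WT1, a factor of mesothelium, at 27.7 and 25.3 CPM, and the fat hormone ADIPOQ at 617 and 381 CPM. ESRP1, a splicing factor of epithelia, stood at 90.8 to 122 CPM in normal bladder and experimental neobladder, at 49.7 and 20.8 CPM in control neobladder and at 0 and 0.089 CPM in peritoneum. The keratin KRT7 stood at 2193 to 4818 CPM in normal bladder and experimental neobladder against 7.94 and 26.8 CPM in control neobladder.

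The identity of the MYH11 row carries a limit. The gene name table pairs MYH11, the smooth muscle myosin heavy chain, with ENSSSCG00000000146, the number next to that of MYH9, the non-muscle myosin heavy chain ENSSSCG00000000145. RefSeq for Sscrofa11.1 places MYH11 on chromosome 3 and MYH9 on chromosome 5. The 6 named genes nearest to MYH11 in RefSeq have Ensembl numbers at least 29022 away from that of its row, against 1 to 3 for 7 other members, 825 for DES and 2950 for LMOD1. The position of this row was not analysed here, so it is called the row named MYH11, and in the 3 comparisons in which it was called the number of members called is also given without it.

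The actins of the thin filament had 2 different patterns. ACTA2, the smooth muscle alpha actin of vessels and myofibroblasts (ENSSSCG00000010447, chromosome 14, 100868145 to 100886732 in RefSeq for Sscrofa11.1), stood at 2733 and 3052 CPM in normal bladder and at 2774 and 3097 CPM in experimental neobladder. It stood at 438 and 326 CPM in control neobladder and at 523 and 556 CPM in peritoneum. The normal bladder and experimental libraries overlapped, and all 4 of them lay above the other 4 libraries. ACTG2, the enteric gamma actin of visceral smooth muscle (ENSSSCG00000008294, chromosome 3, 69097366 to 69121542), was highest in experimental neobladder at 691 and 797 CPM and stood at 684 and 425 CPM in normal bladder. In control neobladder it stood at 192 and 195 CPM, and in peritoneum at 1.02 and 6.94 CPM. Peritoneum therefore held ACTA2 transcripts with hardly any ACTG2, 10 and 78 counts in its libraries, while the control mucosa, with the lowest ACTA2, kept ACTG2 well above peritoneum. Actin genes are close in sequence, and some reads may not have been placed on a single copy. How the authors' counting treated such reads is not given, so the actin levels may be affected. The striated muscle actins ACTA1 and ACTC1 had 0 to 37 and 0 to 87 counts per library, and the cytoplasmic actins ACTB and ACTG1 were not called in any of the 6 comparisons.

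**Figure D1:**
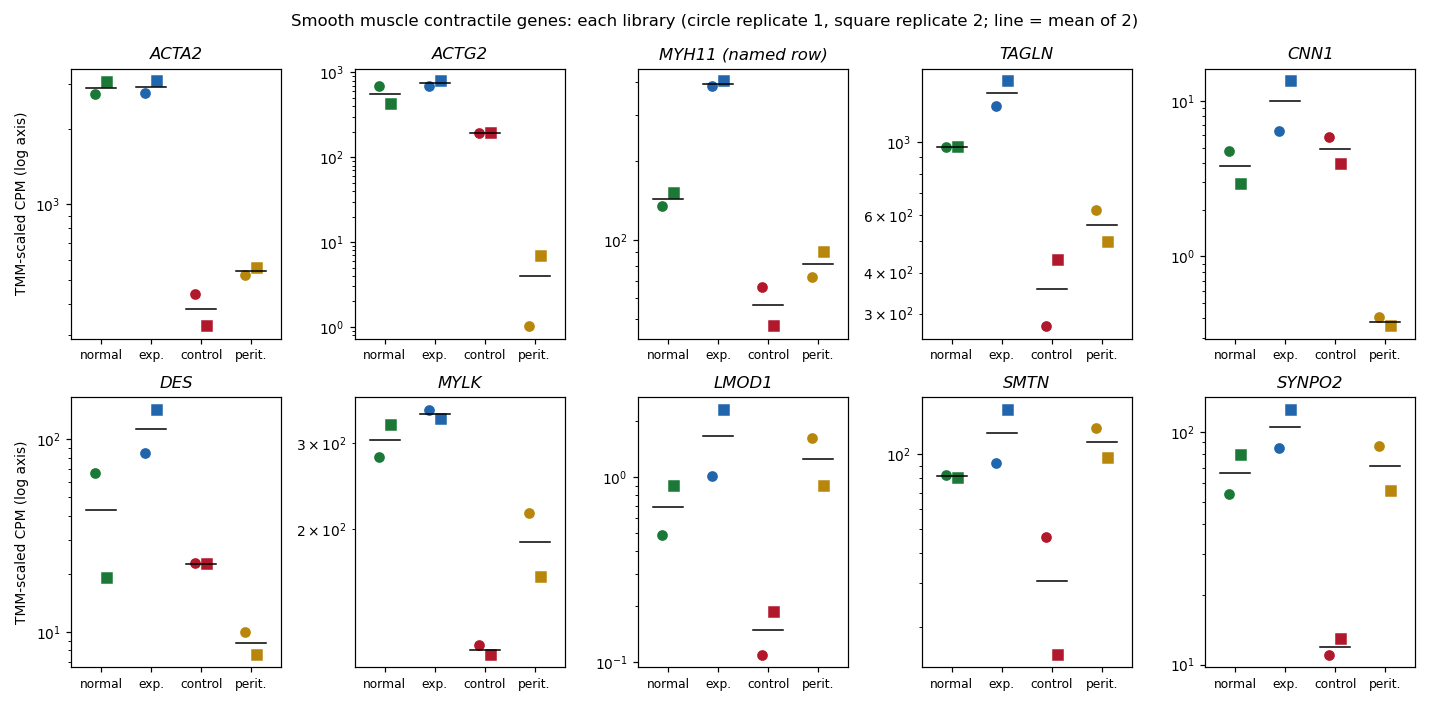
TMM-scaled CPM on log axes of the 10 contractile genes in the 8 libraries, by group, with circles for replicate 1, squares for replicate 2 and a line at the mean of 2. ACTG2, CNN1 and DES have their lowest libraries in peritoneum, while ACTA2, TAGLN, MYLK, LMOD1, SMTN, SYNPO2 and the row named MYH11 have theirs in the control neobladder.

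The motor genes were highest in the experimental neobladder. The row named MYH11 stood at 385 and 404 CPM there, at 135 and 151 CPM in normal bladder, at 72.1 and 90.1 CPM in peritoneum and at 66.4 and 47 CPM in control neobladder. No library of a group overlapped with another group's, so the order ran from experimental neobladder through normal bladder and peritoneum to control neobladder. Adjacent groups at the lower end, peritoneum and control neobladder, gave no call for their difference (adjusted p = 0.282). The row of MYH9, whose number is adjacent, stood at 2.06 to 35.4 CPM and was not called in any comparison. MYLK, the myosin light chain kinase (ENSSSCG00000011867, chromosome 13, 136509878 to 136809674), had the narrowest span of the 10 genes, 3.17-fold between its highest and lowest library. It stood at 351 and 336 CPM in experimental neobladder, 280 and 327 CPM in normal bladder, 215 and 160 CPM in peritoneum and 116 and 110 CPM in control neobladder. Its groups did not overlap either, although the difference between experimental and normal mucosa was small beside its error, at 0.18 with an SE of 0.38.

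Among the proteins that bind actin, TAGLN, or transgelin, a calponin-like protein (ENSSSCG00000015073, chromosome 9, 44561756 to 44567385), stood at 1288 and 1536 CPM in experimental neobladder and 969 and 966 CPM in normal bladder. Its levels were 619 and 495 CPM in peritoneum and 274 and 437 CPM in control neobladder, so that the groups again did not overlap. CNN1, basic calponin (ENSSSCG00000013614, chromosome 2, 70183370 to 70190756), was sparsely counted, with 8 counts in peritoneum and 75 to 221 counts in each other group. It stood at 6.43 and 13.4 CPM in experimental neobladder, 5.87 and 3.93 CPM in control neobladder, 4.76 and 2.91 CPM in normal bladder and 0.407 and 0.356 CPM in peritoneum. The control and normal bladder libraries overlapped, and CNN1 was the member whose mean was not lower in control neobladder than in normal bladder. SMTN, smoothelin, a cytoskeletal protein of differentiated smooth muscle (ENSSSCG00000010017, chromosome 14, 47879317 to 47902700), stood at 92.7 and 152 CPM in experimental neobladder and 128 and 96.8 CPM in peritoneum, which overlapped. Normal bladder, at 82.8 and 79.9 CPM, lay just below both, and control neobladder was lowest at 46.2 and 15.3 CPM.

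SYNPO2, synaptopodin 2, an actin-bundling protein of dense bodies and Z-discs (ENSSSCG00000009111, chromosome 8, 104677580 to 104844169), stood at 85.3 and 124 CPM in experimental neobladder, 87.3 and 55.9 CPM in peritoneum and 53.9 and 79.5 CPM in normal bladder. The libraries of peritoneum overlapped with those of normal bladder and of experimental neobladder, and control neobladder stood apart below them at 11 and 12.9 CPM. LMOD1, leiomodin 1, which nucleates actin filaments in smooth muscle (ENSSSCG00000031201, chromosome 10, 24165293 to 24194823), had only 1 to 25 counts per library. It stood at 1.02 and 2.32 CPM in experimental neobladder, 1.63 and 0.89 CPM in peritoneum, 0.484 and 0.895 CPM in normal bladder and 0.109 and 0.187 CPM in control neobladder, which had 1 count in each library. Counting error alone leaves the ratio of experimental to control neobladder at 11.9 with a 95% exact interval from 3.07 to 102, and an interval covers counting error only. DES, desmin, the intermediate filament of muscle cells (ENSSSCG00000020785, chromosome 15, 121428539 to 121435426), stood at 85 and 143 CPM in experimental neobladder and at 22.8 and 22.5 CPM in control neobladder. Its normal bladder libraries stood at 66.6 and 19 CPM, a larger ratio between replicates than in any other group, and peritoneum was lowest at 9.97 and 7.56 CPM. Normal bladder replicate 1, the library with more DES, also held more of the striated muscle genes ACTA1 (37 against 4 counts), ACTC1 (87 against 7 counts) and CKM (2.82 against 0.0746 CPM). These 3 were picked from 12 skeletal and cardiac muscle genes in the files. The 12 summed to 38.1 CPM there, to 20.5 CPM in normal bladder replicate 2 and to 6.92 to 30.9 CPM in the other libraries. ACTC1 also had 36 and 39 counts in the control neobladder libraries, where DES stood at 22.8 and 22.5 CPM. The part of these genes in the DES values was not tested.

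The comparison of experimental with control neobladder asked how contractile gene expression differed between the mucosa of the 2 reservoirs. Of the 10 members, 7 rose and none fell, where the test called 21.7% of all 16549 genes, 10.4% higher and 11.3% lower. The members' median log2 fold change was 2.16, beside 0.11 over all genes tested. SYNPO2 rose by 3.14 (SE 0.43, adjusted p = 0.000717), ACTA2 by 2.94 (SE 0.51, adjusted p = 0.00279) and the row named MYH11 by 2.80 (SE 0.40, adjusted p = 0.000837). These are increases of 8.79-fold, 7.68-fold and 6.95-fold. DES rose by 2.33 (SE 0.56, adjusted p = 0.0148), TAGLN by 1.99 (SE 0.48, adjusted p = 0.0143), SMTN by 1.98 (SE 0.52, adjusted p = 0.0219) and MYLK by 1.60 (SE 0.38, adjusted p = 0.0148). The 3 members that were not called differed in the same direction: LMOD1 by 3.46 (SE 1.18, adjusted p = 0.0599), ACTG2 by 1.94 (SE 0.67, adjusted p = 0.0645) and CNN1 by 1.01 (SE 0.57, adjusted p = 0.234). In all 10 members both experimental libraries lay above both control libraries, which held for 34.1% of all genes, while 26.2% lay below without overlap. Without the row named MYH11, 6 of 9 rose.

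The size of this count rested on single libraries, and the number called over all genes also moved when 1 was left out. Such fits are given here by fold change. The members' median ran from 1.90 without experimental replicate 2 to 2.69 without control replicate 1. Without experimental replicate 1, TAGLN stood at 2.14 and MYLK at 1.59. Without experimental replicate 2, TAGLN stood at 1.88, MYLK at 1.65, DES at 1.93 and SMTN at 1.60. DES stood at 2.37 and 2.32 without control replicates 1 and 2. When experimental and control neobladder were fitted alone, the spread was estimated from these 2 groups only. Then 3 members were called, and ACTA2 gave adjusted p = 0.0516. The closing section gives the counts over all genes. In each comparison without control neobladder, a fit of only the 2 groups called more members than the main fit, not fewer. The cause was not tested.

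**Figure D2:**
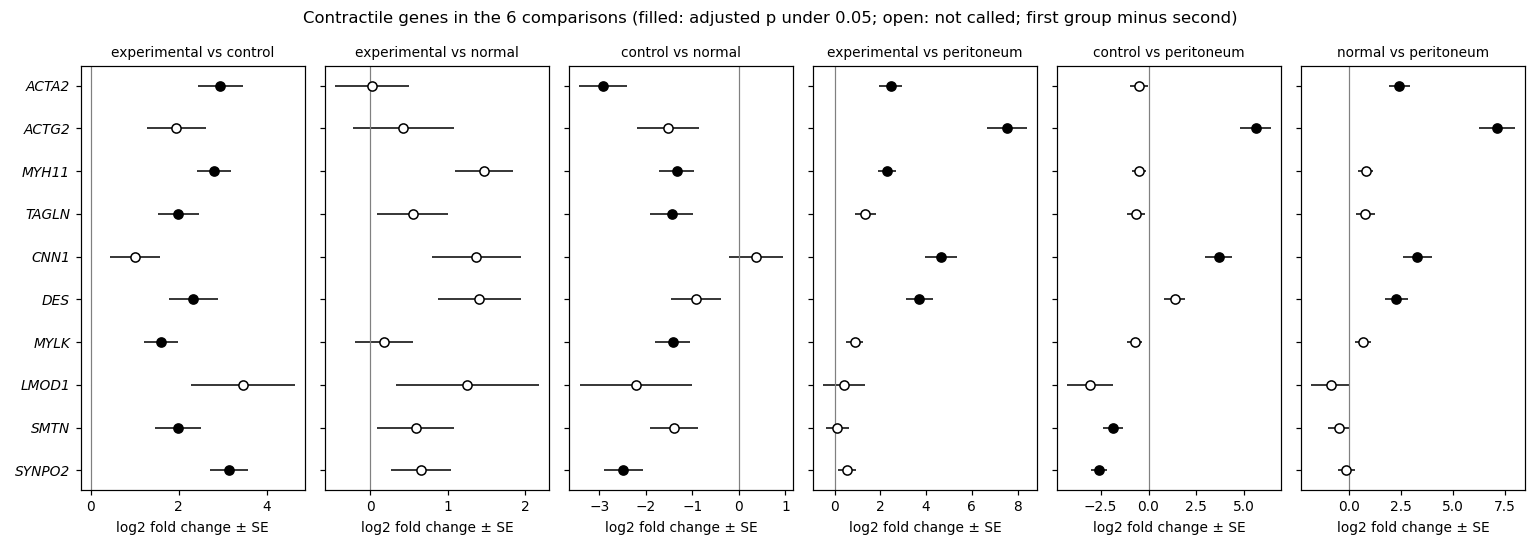
Log2 fold change ± SE of each contractile gene in the 6 pairwise comparisons, first group minus second, with filled points for an adjusted p under 0.05 by edgeR. In the first panel, experimental against control neobladder, all 10 points lie right of 0 and 7 are filled, and in the second panel, experimental against normal bladder, all 10 lie at or right of 0 and none is filled.

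Experimental neobladder was set against normal bladder to see how near the contractile genes of the reservoir came to those of the organ it stood in for. The edgeR test called 0 of the 10 members, where it called 0.0967% of all genes, 0.0423% higher and 0.0544% lower. Its unadjusted p was under 0.05 for 3 members and for 1326 of all 16549 genes. All 10 fold changes were above 0, with a median of 0.62 beside 0.02 over all genes, and in 9 members both experimental libraries lay above both normal bladder libraries, which held for 24.8% of all genes. The row named MYH11 differed most, by 1.47 (SE 0.38, adjusted p = 0.266), followed by DES at 1.41 (SE 0.54, adjusted p = 0.509) and CNN1 at 1.37 (SE 0.57, adjusted p = 0.561). DESeq2 called 1 member, the row named MYH11 (adjusted p = 0.00217), and edgeR called the same row when these 2 groups were fitted alone (adjusted p = 0.00634). ACTA2 was the nearest to equal, at 0.02 with a 95% interval from -1.03 to 1.07, so a difference within that range was not excluded. The interval of ACTG2 ran from -1.02 to 1.87 and that of MYLK from -0.65 to 1.01.

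The control neobladder was then set against the normal bladder. Of the 10 members, 5 fell and none rose, where the test called 22.3% of all genes, 11.1% lower and 11.2% higher, and the members' median was -1.43 beside -0.11 over all genes. In 8 members both control libraries lay below both normal bladder libraries and in none above, which held for 35.2% and 27.5% of all genes. ACTA2 fell by 2.92 (SE 0.51, adjusted p = 0.00292) and SYNPO2 fell by 2.48 (SE 0.42, adjusted p = 0.00241). TAGLN fell by 1.44 (SE 0.47, adjusted p = 0.0489), MYLK fell by 1.42 (SE 0.38, adjusted p = 0.024) and the row named MYH11 fell by 1.33 (SE 0.38, adjusted p = 0.0296). ACTG2, at -1.52 (adjusted p = 0.125), SMTN, at -1.39 (adjusted p = 0.073), LMOD1, at -2.21 (adjusted p = 0.207), and DES, at -0.92 (adjusted p = 0.24), were not called, and CNN1 stood at 0.37 (adjusted p = 0.68), or at -0.44 on unscaled library totals. For LMOD1 the ratio of 2 to 18 counts was 0.197, with an exact 95% counting interval from 0.0222 to 0.823. The number of members called moved when a library was left out, as did the number over all genes. Without normal bladder replicate 1, TAGLN stood at -1.46, MYLK at -1.54 and the row named MYH11 at -1.42. Without replicate 2 they stood at -1.46, -1.32 and -1.26. Without the row named MYH11, 4 of 9 fell.

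Against normal peritoneum, the tissue tested as the replacement, the members differed to very unequal extents. In experimental neobladder 5 of 10 were higher and none lower, where the test called 24.2% of all genes, 12.4% higher and 11.8% lower, with a median of 1.81 for the members and -0.01 for all genes. In 7 members the experimental libraries lay above those of peritoneum and in none below, which held for 35.4% and 35.9% of all genes. Those that rose were ACTG2 by 7.53 (SE 0.87, adjusted p = 0.000255), CNN1 by 4.66 (SE 0.71, adjusted p = 0.00113), DES by 3.70 (SE 0.59, adjusted p = 0.00158), ACTA2 by 2.44 (SE 0.50, adjusted p = 0.00588) and the row named MYH11 by 2.28 (SE 0.39, adjusted p = 0.00202). ACTG2 differed by 185-fold. TAGLN stood at 1.34 (adjusted p = 0.0592), MYLK at 0.87 (adjusted p = 0.119), SYNPO2 at 0.55 (adjusted p = 0.332), LMOD1 at 0.40 (adjusted p = 0.783) and SMTN at 0.12 (adjusted p = 0.891). The interval of SMTN ran from -0.98 to 1.22, so equal levels were not shown. Without peritoneum replicate 1 or 2 the call of ACTA2 was lost (adjusted p = 0.079 and 0.066), and without the row named MYH11 4 of 9 rose.

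Of the 10 members, 4 were higher in normal bladder than in peritoneum and none lower, where 21.1% of all genes were called, 11.1% higher and 9.93% lower, with a median of 0.81 beside -0.01. In 7 members the bladder libraries lay above those of peritoneum and in 1, SMTN, below, which held for 35.3% and 34.7% of all genes. ACTG2 was higher by 7.11 (SE 0.86, adjusted p = 0.000374), CNN1 by 3.29 (SE 0.70, adjusted p = 0.00829), ACTA2 by 2.42 (SE 0.50, adjusted p = 0.00716) and DES by 2.29 (SE 0.56, adjusted p = 0.0167). SYNPO2, at -0.10 (adjusted p = 0.886), SMTN, at -0.47 (adjusted p = 0.548), and LMOD1, at -0.85 (adjusted p = 0.561), lay at or below 0. Fewer members were called with any 1 library left out, and fewer genes over the whole series, so these fits are given by fold change. The members' median was 0.79 to 0.97, and ACTA2 stood at 2.36 to 2.52. DES stood at 1.14 without normal bladder replicate 1, and at 2.52 and 2.17 without peritoneum replicates 1 and 2. CNN1 stood at 2.92 without normal bladder replicate 1 and at 3.25 without peritoneum replicate 2. ACTG2 stood at 6.34 to 9.13 over all 11 alternative settings. This comparison and the previous one share the peritoneum libraries.

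Between control neobladder and peritoneum, members were called in both directions, at shares close to those over all genes. ACTG2 was higher in control mucosa by 5.59 (SE 0.80, adjusted p = 0.000462) and CNN1 by 3.66 (SE 0.71, adjusted p = 0.00257), while SYNPO2 was lower, with a fold change of -2.58 (SE 0.42, adjusted p = 0.000952), and so was SMTN, with -1.86 (SE 0.51, adjusted p = 0.0154). The test thus called 2 members higher and 2 lower, where it called 42.3% of all genes, 21.6% higher and 20.6% lower, and the members' median was -0.58 beside -0.06. ACTA2, at -0.50, TAGLN, at -0.65, MYLK, at -0.73, and the row named MYH11, at -0.52, were not called (adjusted p from 0.142 to 0.42) although they lay lower without overlap, nor were DES at 1.37 (adjusted p = 0.0687) and LMOD1 at -3.06 (adjusted p = 0.0592). For LMOD1 the ratio of 2 to 26 counts was 0.111, with a counting interval from 0.0128 to 0.445. Without control replicate 1 the test also called ACTA2, MYLK and the row named MYH11 lower (adjusted p = 0.0372, 0.037 and 0.0283), 7 members in all, and without control replicate 2 it called TAGLN lower (adjusted p = 0.0135). SMTN was not called without peritoneum replicate 1 (adjusted p = 0.079). In all, 3 members lay higher and 7 lower without overlap, which held for 32.2% and 37.4% of all genes. Unscaled library totals lower the levels of control neobladder against those of peritoneum for all genes alike. On them 9 members were called, 2 higher and 7 lower, and the share over all genes on these totals is not given here.

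The balance between members was read within each library, where neither scaling nor gene length affects a comparison between groups. For every 100 ACTA2 counts there were 43.8 and 59.9 ACTG2 counts in control neobladder, 24.9 and 25.7 in experimental neobladder, 25 and 13.9 in normal bladder and 0.194 and 1.25 in peritoneum. Control mucosa thus had the most ACTG2 per ACTA2 and peritoneum by far the least, with no overlap with any other group. DES per 100 ACTA2 counts was 5.21 and 6.88 in control neobladder, 3.06 and 4.6 in experimental neobladder, 2.44 and 0.623 in normal bladder and 1.91 and 1.36 in peritoneum. The experimental libraries lay between those of control and normal bladder mucosa. The row named MYH11 had 4.94 and 4.94 counts per 100 ACTA2 counts in normal bladder and 13 to 16.2 in the other 6 libraries, so that normal bladder stood apart. With 2 libraries against 2, an exact permutation test cannot give a two-sided p below 0.333, and these ratios are a description.

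**Figure D3:**
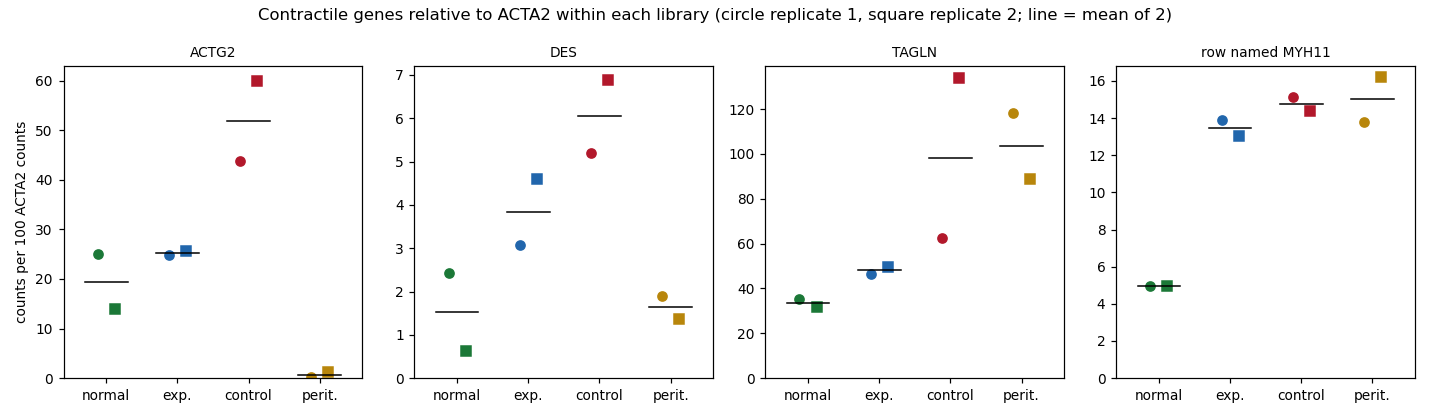
Counts of ACTG2, DES, TAGLN and the row named MYH11 per 100 ACTA2 counts in each library, by group, on linear axes from 0, with circles for replicate 1, squares for replicate 2 and a line at the mean of 2. ACTG2 runs from 0.194 in a peritoneum library to 59.9 in a control neobladder library, and the row named MYH11 is lowest in normal bladder at 4.94.

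The ratio of TAGLN to ACTA2 split the libraries another way. TAGLN had 118 and 89 counts per 100 ACTA2 counts in peritoneum and 62.6 and 134 in control neobladder, against 35.5 and 31.6 in normal bladder and 46.4 and 49.6 in experimental neobladder. The 4 libraries of the normal bladder and experimental mucosa thus lay below the other 4. SYNPO2 had 16.7 and 10.1 counts per 100 ACTA2 counts in peritoneum and 1.97 to 4.02 in the other 6 libraries. Together the 10 genes made up 0.582 and 0.62% of all counts in normal bladder and 0.662 and 0.719% in experimental neobladder, against 0.205 and 0.178% in peritoneum and 0.0985 and 0.0526% in control neobladder.

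Genes that work with the 10 members were described from 5 lists: thin filament and tropomyosin, myosin light chains and phosphatase, dense body and adhesion, transcriptional regulators, and excitation and receptors. Of 90 genes listed, 80 were found in the files by symbol and 78 were tested. Between experimental and control neobladder 23 of these rose and 5 fell, which is 35.9% called where 21.7% of all genes were called in either direction, with a median of 1.02. Of 20 dense body and adhesion genes 11 rose and 1 fell, with a median of 1.56. PGM5, a phosphoglucomutase-like adhesion protein, rose from 22.8 to 191 CPM (3.07, adjusted p = 0.000341), and the actin crosslinker FLNA rose from 48.4 to 244 CPM (2.33, adjusted p = 0.00212). PALLD, or palladin, which organises actin bundles, rose by 1.97 (adjusted p = 0.00298) and the laminin receptor chain ITGA7 by 2.15 (adjusted p = 0.00473). The gene that fell was CSRP2, a LIM protein, by 2.60 (adjusted p = 0.00622), named after its value was seen. With these 2 groups fitted alone the 5 lists together had 13 genes called. Their number also moved when a library was left out, as did the number over all genes, which the closing section gives.

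Of 10 thin filament genes tested, 4 rose and none fell, where 10.4% of all genes rose: caldesmon (CALD1), by 1.90 (adjusted p = 0.0105), NEXN, an actin-binding protein also called nexilin, by 2.19 (adjusted p = 0.0202), and the tropomyosins TPM2, by 1.74 (adjusted p = 0.0336), and TPM1, by 1.34 (adjusted p = 0.0451). TPM4, a tropomyosin of non-muscle cells, averaged 582 CPM in the experimental libraries against 530 CPM in the control ones (adjusted p = 0.856). Of 14 genes of the myosin light chains and phosphatase, 3 rose and none fell, which is 21.4% called and close to the 21.7% of all genes: the phosphatase subunit PPP1R12B by 2.76 (adjusted p = 0.0059), the kinase DAPK3 by 1.71 (adjusted p = 0.0185) and the smooth muscle light chain MYL9 by 1.57 (adjusted p = 0.0197). MYL6, the light chain that many cell types share, stood at 10619 CPM in control replicate 2 and at 853 to 1983 CPM in the other 7 libraries (-1.86, adjusted p = 0.0978).

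Of 15 transcriptional regulators tested, 3 rose and 1 fell between experimental and control neobladder, which is 26.7% called beside 21.7% of all genes. FOXF1, a mesenchymal factor of gut and bladder, rose by 2.58 (adjusted p = 0.00227), PRRX1, a factor of mesenchymal cells, by 2.60 (adjusted p = 0.0184) and MRTFB, a coactivator of serum response factor, by 1.43 (adjusted p = 0.0332). GATA6 fell by 2.88 (adjusted p = 0.00207), from 51.8 to 7.04 CPM. FOXF1 stood at 110 and 217 CPM in experimental neobladder, 123 and 120 CPM in normal bladder, 32.4 and 21.9 CPM in control neobladder and 2.54 and 2.31 CPM in peritoneum, so its group means stood in the same order as those of ACTG2. Myocardin (MYOCD), the partner of serum response factor named in the background and chosen for that reason, had 73 to 127 counts in the normal bladder and experimental libraries, 104 and 40 in peritoneum and 30 and 2 in control neobladder (1.79 between experimental and control, adjusted p = 0.128). SRF itself had 0 to 45 counts per library and was not called (adjusted p = 0.925).

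Of 19 genes of excitation and receptors 2 rose and 3 fell, which is 26.3% called beside 21.7% of all genes, with a median of 0.31. The calcium release channels RYR2 and ITPR1 rose by 2.14 (adjusted p = 0.0193) and 1.70 (adjusted p = 0.00833). The ATP-gated channel P2RX1 fell by 2.83 (adjusted p = 0.0103) and RGS2, which dampens G protein signals, fell by 1.71 (adjusted p = 0.023). CHRM3, the muscarinic receptor that drives bladder contraction, was called lower, with 0 counts in both experimental libraries against 6.31 and 5.24 CPM in control mucosa (adjusted p = 0.0197), and it also stood at 0.403 and 0.149 CPM in normal bladder. Against normal bladder edgeR called 0 of the 78 genes of the 5 lists in the experimental mucosa, where it called 0.0967% of all genes, and their median was 0.02. Its unadjusted p was under 0.05 for 10 of the 78 and for 1326 of all 16549 genes, and DESeq2 called 2 of the 78.

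**Figure D4:**
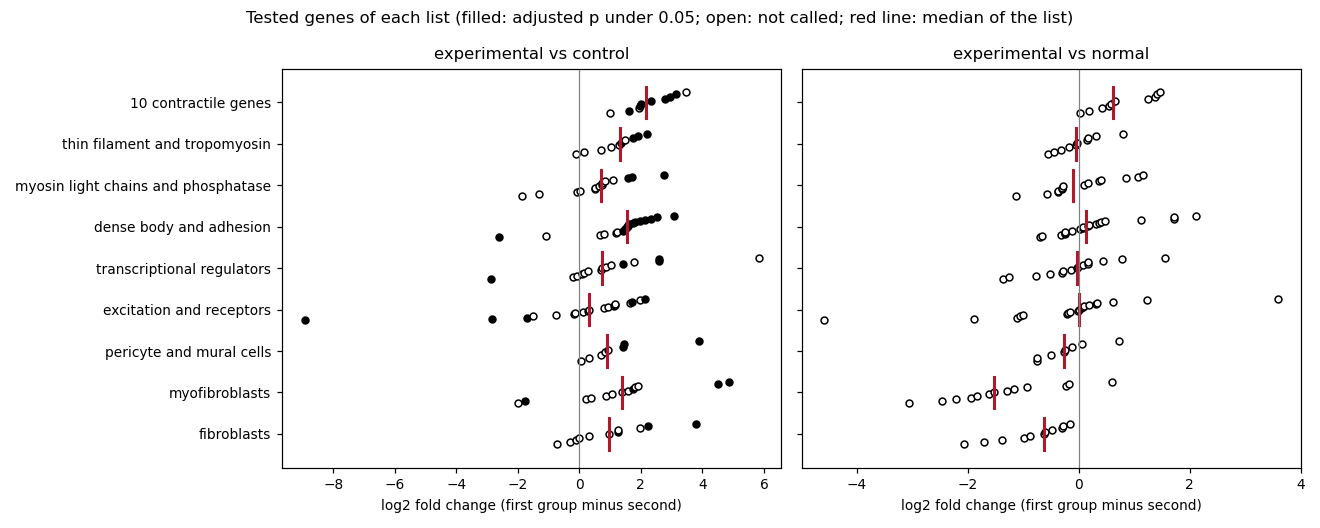
Log2 fold change of every tested gene of 9 lists, experimental against control neobladder on the left and experimental against normal bladder on the right, with filled points for an adjusted p under 0.05 and a red line at each list's median. On the left the contractile genes have the highest median at 2.16, and on the right their median is 0.62 while that of the myofibroblast list is -1.53.

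Lists of other cell types were counted because ACTA2, TAGLN and MYLK are not made by smooth muscle alone. Summed over 15 genes in the files, the myofibroblast list stood at 62740 and 76261 CPM in peritoneum, 16793 and 18849 CPM in normal bladder, 5151 and 5861 CPM in experimental neobladder and 2915 and 1012 CPM in control neobladder. The summed level of the 10 contractile genes had another order: 5759 and 6604 CPM in experimental neobladder, 5009 and 5103 CPM in normal bladder, 1658 and 1469 CPM in peritoneum and 1173 and 1170 CPM in control neobladder. Experimental mucosa thus held the highest contractile sum, while its myofibroblast sum lay below that of normal bladder. The myofibroblast sum was carried by the collagen chains COL1A1, COL1A2 and COL3A1 and the matrix protein SPARC. In normal bladder these averaged 3940, 4706, 4182 and 3201 CPM of 17821 CPM. In experimental neobladder they averaged 850, 1324, 1085 and 1112 CPM of 5506 CPM. This sum therefore reads mostly matrix genes and does not single out myofibroblasts. The contractile sum was carried by ACTA2 and TAGLN, which myofibroblasts also make: in the libraries of these 2 groups ACTA2 gave 46.9 to 59.8% of it and TAGLN 18.9 to 23.3%. Between those groups 10 of 13 tested myofibroblast genes and 10 of 11 fibroblast genes were lower with no overlap, which held for 23.7% of all genes. Their medians were -1.53 and -0.62, and edgeR called 0 of either list. At an unadjusted p under 0.05 by edgeR there were 10 and 4 of them, beside 1326 of all 16549 genes. COL1A2, a collagen chain, stood at 1342 and 1307 CPM in experimental neobladder against 4644 and 4769 CPM in normal bladder (adjusted p = 0.46).

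Between experimental and control neobladder 10.4% of all genes rose and 11.3% fell, with a median of 0.11. The myofibroblast and fibroblast lists had larger shares that rose, though on only 3 genes each, and higher medians. Of 13 myofibroblast genes 3 rose and 1 fell (30.8% called, median 1.37), and of 11 fibroblast genes 3 rose (27.3% called, median 0.97), beside 21.7% of all genes called. Of 8 pericyte and mural cell genes 3 rose (37.5% called, median 0.89). NOTCH3, a receptor of mural cells, rose by 3.89 (adjusted p = 0.000323), while RGS5, a pericyte marker, averaged 156 CPM in the experimental and 151 CPM in the control libraries (adjusted p = 0.954). CCN2, a matricellular protein, rose by 4.87 (adjusted p = 0.000344), and DCN, or decorin, the fibroblast gene with the highest mean CPM, averaged 313 CPM in the experimental and 339 CPM in the control libraries (adjusted p = 0.903). Endothelial genes rose in 2 of 7 cases with a median of 1.39, and leukocyte genes fell in 3 of 8 with a median of -1.42. No fibroblast, endothelium or leukocyte gene was at 0 in both libraries of any group. Of the 15 myofibroblast genes, 1 was at 0 in both control libraries and 2 in both peritoneum libraries. The part of these cell types in the contractile gene differences was not tested.

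**Figure D5:**
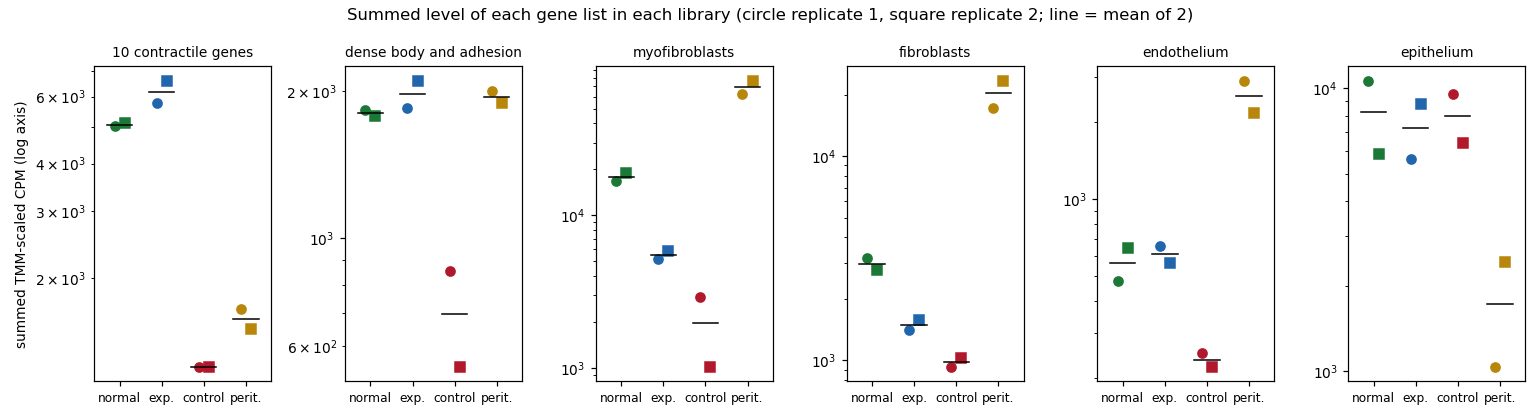
Summed TMM-scaled CPM on log axes of the 10 contractile genes and of 5 marker lists in each library, by group, with circles for replicate 1, squares for replicate 2 and a line at the mean of 2. The contractile genes are highest in experimental neobladder at 5759 and 6604 CPM, whereas the myofibroblast, fibroblast and endothelium lists are highest in peritoneum.

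The pattern of the members was compared with that of every tested gene by the root-mean-square distance between centred log2 CPM over the 8 libraries and the mean of the 10 members. Of the members, the row named MYH11 lay nearest to their own mean, at 0.38, followed by TAGLN at 0.45, ACTA2 at 0.55, MYLK at 0.56 and DES at 0.69. SYNPO2, LMOD1, SMTN and CNN1 lay at 1 to 1.09, where 24.6 to 32.3% of all genes were nearer, and ACTG2 lay at 2.61, farther than 94.8% of all genes. Each member is part of this mean, which shortens its own distance. Even so, the mean described ACTG2 poorly, while it lay near some other members. The 6 other genes with a symbol nearest to it were RASGEF1B at 0.21, SGSM3 at 0.26, MREG at 0.29, RND1 and SLC20A2 at 0.30 and PHKA2 at 0.31. RASGEF1B, a guanine nucleotide exchange factor, stood at 160 and 164 CPM in experimental neobladder, 102 and 101 CPM in normal bladder, 50 and 42.5 CPM in control neobladder and 32.9 and 40.9 CPM in peritoneum. The distance rests on 8 libraries in 4 groups and is a description.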

How the data were processed

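Each deposited file gives 1 library's unnormalized counts by Ensembl gene. For the authors' read trimming, alignment to Sscrofa11.1 and counting, the submitters' processing notes name Trim Galore, HISAT2 and HTSeq 0.11.1. Settings, strand handling and annotation release are not given in the sources used here. Total RNA was made into libraries with Smart-seq2, per the labels' protocols. Smart-seq2 does not mark strand, so reads of overlapping genes cannot be told apart. Symbols came from a gene name table that named 15029 of 31907 genes, and coordinates from RefSeq for Sscrofa11.1.

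Counts were analysed with edgeR 4.0.16 in R 4.3.3: filterByExpr, TMM factors and a robust quasi-likelihood fit of all 4 groups (4 residual degrees of freedom, biological coefficient of variation 0.382). Standard errors were derived from the F statistic, and intervals are 95%. Replicates of a group differed by more than sampling noise, so all 8 libraries were used. Chi-square over degrees of freedom was 295 in control neobladder. It was 24.9 in peritoneum, 32.9 in normal bladder and 35.7 in experimental neobladder, so the control replicates were by far the least alike. The script was tested on simulated data.

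The members and lists were chosen with earlier results of these data known. Named genes were the 10 members, up to 4 genes of each list with the smallest p between experimental and control neobladder plus the list's most abundant gene, actin paralogs, and the 6 nearest in pattern, and exceptions are marked. MYH9, MYOCD, SRF, WT1, ADIPOQ, ESRP1, KRT7 and CKM were chosen as context after values were seen. Alternatives were relative log expression size factors, unscaled library totals, no filter, DESeq2 1.42.0, a fit of only the 2 groups compared, replicate number as a block, a null of a 1.5-fold change, and each library left out. The count without the row named MYH11 was added after seeing the data.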

Additional observations from a re-analysis of the deposited data

How the results depend on the processing

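Of the 10 members, the counts called were 7, 0, 5, 5, 4 and 4 for experimental against control neobladder, experimental against normal bladder, control against normal bladder, experimental against peritoneum, control against peritoneum and normal bladder against peritoneum. With the 2 groups alone they were 3, 1, 2, 7, 4 and 7. The test against a 1.5-fold change gave 2 for control against normal bladder, unscaled library totals gave 9 for control against peritoneum, and DESeq2 gave 1 for experimental against normal bladder. Leaving out each library in turn gave 3 to 6, 0 to 0, 2 to 6, 4 to 5, 3 to 7 and 1 to 3 members, where a lone library was assumed to vary like the other groups. No other setting moved these counts by over 1.5 times.

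On unscaled totals the median of all genes between experimental and control neobladder moved from 0.11 to 0.89, and the members' median lay 2.05 above it as reported and 2.11 above it on unscaled totals. Fold changes that turned in sign, none of them called, were ACTA2 against normal bladder in experimental mucosa (-0.0691 on unscaled totals, and -0.0545 to 0.11 with a library left out), CNN1 in control against normal bladder (-0.44 on unscaled totals) and DES in the same comparison (-1.57 to 0.24 with a library left out). Others were SMTN in experimental neobladder against peritoneum (-0.0243 on unscaled totals, and -0.25 to 0.47 with a library left out), LMOD1 there (-0.27 to 0.92 with a library left out) and SYNPO2 in normal bladder against peritoneum (-0.39 to 0.28 with a library left out). The cause was not tested.

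Over all genes, experimental against control neobladder called 3584, 2340 with the 2 groups alone, 1396 to 6358 with a library left out and 77% higher on unscaled totals against 48% as reported. Experimental against normal bladder called 16, with 453 for the 2 groups alone, 352 without the filter, 238 by DESeq2, 10 against a 1.5-fold change and 5 on unscaled totals. Deviations between replicates correlated at -0.0795 to 0.0911 between groups. With 2 libraries per group this cannot show whether equal replicate numbers pair the samples. The replicate block left the members' counts at 7, 0, 4, 5, 4 and 4, with TAGLN lost in control against normal bladder (edgeR adjusted p = 0.0682). LMOD1 had 1 count in each control library, so its level there is limited by depth.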
